A study of Salmo salar with 18 samples.

Results

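Transcripts that blood leukocytes are known to make were followed in the liver of Atlantic salmon (Salmo salar) at 4 probes, those of interleukin-8 (il8, probe C183R028), cathelicidin (camp-a, C234R046), a granulocyte peroxidase (epx, C152R082) and Nck-associated protein 1-like (nckap1l, C020R060). They were 4 of the 43689 probes on a 44K array and were picked by their identifiers, because their levels differed from control fish in an earlier reading of these data. Their differences from control fish are therefore a description without a test. All 4 were among the 23846 probes tested. Juvenile post-smolts were held in 6 tanks with 2 tanks per treatment, and whole liver of 6 fish per treatment, 3 from each tank, was hybridized to 18 arrays. Control (CT) fish stayed at 12 °C and 100% air saturation. Warm and normoxic (WN) fish were brought from 12 to 20 °C at 1 °C per week at 100% air saturation, and warm and hypoxic (WH) fish were first brought to 70% air saturation, acclimated for 2 weeks and then warmed in the same way at 70%. Warmed fish were sampled 3 days after 20 °C was reached, and all fish had been fed to satiation and then fasted.

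Each fish was labelled with Cy5 and a pool of the RNA of all 18 fish with Cy3, so every value below is the log2 ratio of a fish to that pool, and a value of 0 is the level of the pool. No dyes were swapped. The sample titles carry 5 codes, each on at most 4 arrays, which are taken here to name the slides, although the labels do not say so. A tank held a single treatment, so with 2 tanks per treatment the effects of tank and treatment cannot be told apart, and p-values over fish measure the spread between fish. Between 8.93% and 17.3% of the probes on an array were flagged, and the median signal was 14.0 to 111 times the background in the Cy5 channel and 18.0 to 251 times in the Cy3 channel. A background of 1 was recorded at many spots of the 4 probes, so a high ratio need not mean a spot above background. The Cy5 spot of il8 on CT-1, at 13.5 over a background of 1, was not. Of 14 hepatocyte genes sought, 1 had a named probe, that of FABP1, the liver fatty acid binding protein, whose Cy5 spot was above background on 18 of 18 arrays. None of 11 general leukocyte genes had a named probe. Names were taken from the study's WN list and its qPCR genes, and its WH list was not searched. The leukocyte content of the samples was therefore not checked by a list chosen for that.

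The 4 genes stand at different steps of the innate response. Interleukin-8 is a CXC chemokine that draws neutrophils to a tissue and is made by macrophages, endothelial cells and other cells as well as by leukocytes of the blood. Cathelicidins are antimicrobial peptides that mammalian neutrophils store in their granules and that salmonids make after contact with bacteria. Eosinophil peroxidase and myeloperoxidase are granule enzymes that turn hydrogen peroxide into microbicidal oxidants. NCKAP1L, also called HEM1, is the blood-cell form of a subunit of the WAVE complex, which starts the branching of actin filaments when leukocytes crawl or engulf particles. The liver filters the blood, so its RNA holds that of blood cells and resident macrophages beside that of hepatocytes, and in such bulk RNA more cells of a type cannot be told apart from more RNA per cell.

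The transcripts that carry these names are shown by the stretch of each one that the study's own primers amplify, because salmon keep near-identical gene copies, the primers were made to fit 1 copy of each gene, and the name camp-a stands for 1 such copy, paralogue a. The array probes themselves are other stretches, whose letters are not given here. Capitals mark the sites of the forward primer and, at the right, of the reverse primer. All 4 stretches have 1 forward reading frame of 3 without a stop codon.
il8: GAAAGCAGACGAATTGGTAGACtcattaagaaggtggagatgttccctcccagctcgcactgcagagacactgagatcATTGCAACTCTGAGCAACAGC
camp-a: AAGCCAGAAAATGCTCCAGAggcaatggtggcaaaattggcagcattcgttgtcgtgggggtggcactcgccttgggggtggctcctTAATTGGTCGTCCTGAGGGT
epx: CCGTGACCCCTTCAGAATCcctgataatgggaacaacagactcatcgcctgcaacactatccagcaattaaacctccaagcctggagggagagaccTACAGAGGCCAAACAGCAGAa
nckap1l: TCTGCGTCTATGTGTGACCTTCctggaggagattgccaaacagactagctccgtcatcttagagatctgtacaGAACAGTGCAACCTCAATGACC
They are 99, 107, 117 and 95 bases long, and the cathelicidin stretch is the richest in G and C, with 56.1% against 48.4% to 51.3% in the other 3. In the epx stretch 1 base lies past the reverse site. The transcript that the epx probe matched is now listed under the symbol mpx in RefSeq (assembly Ssal_v3.1), in which epx is the symbol of another gene, so the peroxidase measured here is called epx only as in the study. The nckap1l probe was annotated through a rainbow trout transcript with no salmon hit listed, while the primers were drawn on the salmon gene nckap1l, so that the probe and the printed stretch cannot be taken to report the same transcript, and whether they do was not tested. The array holds 0 other probes made from the same source sequence for any of the 4, and 0 of the 1453 probes named here carried the same symbol. Each gene is therefore followed here by 1 probe. The names come from the study's WN list and its qPCR genes, and its WH list was not used. Further probes of these genes among the unnamed ones would not have been seen.

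The peroxidase probe epx was higher than in CT fish in both warm treatments, by nearly the same amount. The lowest, median and highest CT fish were at -1.77, -1.11 and -0.15, WN fish at -0.37, 0.36 and 1.10, and WH fish at -0.43, 0.28 and 1.31. The groups overlapped in both comparisons, with 4 of 6 WN fish and 3 of 6 WH fish above the highest CT fish. The means were -1.06 ± 0.69 (SD, n = 6) in CT, 0.35 ± 0.66 (n = 6) in WN and 0.33 ± 0.78 (n = 6) in WH fish. The difference from CT was 1.41 (SE 0.37) in WN and 1.39 (SE 0.37) in WH fish on the log2 scale, which is 2.65 and 2.63 times. Within the 3 slides that hold both treatments, each with 1 or 2 fish of a treatment, the difference was 0.67 to 1.91 for WN v CT and 0.20 to 2.24 for WH v CT. Its Cy5 spot was above background on all 18 arrays.

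The actin regulator probe nckap1l was higher in both warm treatments with a smaller spread, and its groups did not overlap with CT. CT fish lay at -1.55, -0.86 and -0.30 (lowest, median and highest), the 5 WN fish with a value at -0.10, 0.23 and 1.03, and WH fish at 0.51, 0.78 and 1.12. No warmed fish was as low as the highest CT fish, and WH fish overlapped with WN fish only through the fish WN-3, at 1.03. The means were -0.90 ± 0.51 (n = 6), 0.29 ± 0.44 (n = 5, the spot of WN-6 being flagged) and 0.81 ± 0.26 (n = 6). The difference from CT was 1.19 (SE 0.25), or 2.28 times, in WN fish and 1.71 (SE 0.24), or 3.28 times, in WH fish. Within slides it was 1.56 to 1.66 for WH v CT over 3 slides and 0.68 to 0.96 for WN v CT over 2 slides.

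The chemokine probe il8 was spread over a wide range in CT and WH fish and stood highest in WH fish. CT fish lay at -2.95, -1.03 and 0.72 (lowest, median and highest), WN fish at -1.02, -0.55 and 0.37, and WH fish at -0.33, 0.96 and 2.84. The fish WH-3 stood highest and CT-6 and CT-1 lowest, and every WN fish lay inside the range of the CT fish, while 4 of 6 WH fish were above the highest CT fish. The means were -1.27 ± 1.37 (n = 6) in CT, -0.45 ± 0.61 (n = 6) in WN and 0.95 ± 1.13 (n = 6) in WH fish. The difference was 0.83 (SE 0.53) for WN v CT and 2.22 (SE 0.53) for WH v CT, or 1.77 and 4.65 times.

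The size of the il8 differences from CT depended on how dim spots were handled. Its Cy5 spot was above background on 3 of 6 CT, 5 of 6 WN and 6 of 6 WH arrays, and the lowest CT value came from a Cy5 signal of 43.0 (CT-6) and the next from 13.5 (CT-1), against 440 to 3573 in WH fish. Leaving out CT-6 alone brought the WN v CT difference to 0.49, and leaving out CT-1 alone to 0.54. Without CT-2, the highest CT fish, it rose to 1.22 (SE 0.49). Without the spots not above background, an alternative chosen after seeing the data, the difference was 1.39 (SE 0.56) for WH v CT and 0.09 (SE 0.58) for WN v CT. Cy5 is the numerator of the ratio, so this choice tends to take out low ratios, here those of CT-6 and CT-1 among them. It therefore cannot tell whether those low values were real. With plain background subtraction in place of normexp, which adds an offset of 50 to both channels and so draws the ratios of dim spots towards 0, the WH v CT difference was 3.38 (SE 0.94). Within slides the WH v CT difference of il8 was 0.54 to 2.60, higher in WH fish on 3 of 3 slides, and that of WN v CT was -1.32 to 2.04.

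The cathelicidin probe camp-a had its highest mean in WH fish, while its CT and WN means lay close together. CT fish lay at -2.84, -1.67 and 1.15 (lowest, median and highest), the 5 WN fish with a value at -1.55, -0.79 and 0.03, and WH fish at -0.52, 0.28 and 2.26. WH-3 and WH-1 stood above all other fish, at 2.26 and 2.03, and CT-4, at 1.15, came next, so the groups overlapped in both comparisons with CT. The means were -1.18 ± 1.43 (n = 6) in CT, -0.87 ± 0.60 (n = 5, the spot of WN-4 being flagged) and 0.72 ± 1.15 (n = 6) in WH fish. The difference was 0.32 (SE 0.58) for WN v CT, or 1.25 times, and 1.90 (SE 0.55) for WH v CT, or 3.75 times. The WN v CT difference had no stable direction, since it was -0.15 with spot means, -0.01 without the array CT-6 and 0.78 without CT-4. Its spots were dim in CT fish, with a median Cy5 signal of 130 against 533.5 in WH fish, and above background on 5 of 6 CT arrays. The WH v CT difference was 1.32 with spot means and 2.83 with the authors' values. Within slides camp-a was higher in WH than in CT fish by 2.16 to 2.22 on 3 of 3 slides, each with 1 or 2 fish of a treatment. On 1 of these slides the only CT fish was CT-2, whose Cy5 spot was not above background. CT-4, the highest CT fish, was on a slide without WH fish and did not enter.

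**Figure D1:**
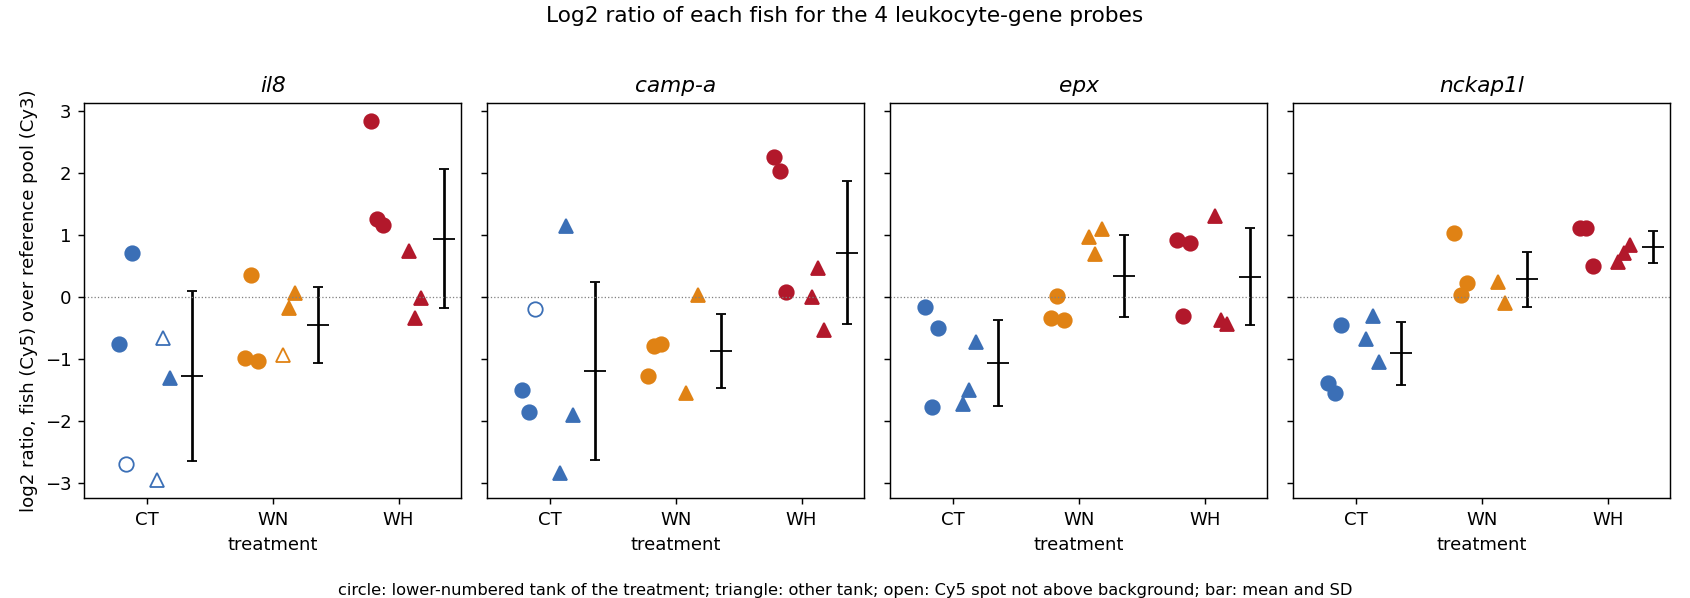
Log2 ratio to the reference pool (vertical axis) of each fish (points) by treatment for the 4 probes, with the mean and SD beside them; circles and triangles are the 2 tanks of a treatment, and open symbols are Cy5 spots not above background. The means of epx and nckap1l are higher in both warm treatments than in CT fish, while il8 and camp-a are highest in WH fish, with WH-3 at 2.84 and 2.26.

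Over all probes tested, 1.86% were higher in WN and 2.42% higher in WH than in CT fish at an adjusted p under 0.05 in limma. Of the 4 probes, epx and nckap1l were among those called in WN v CT, and all 4 among those called in WH v CT, where camp-a was just inside the threshold, at an adjusted p of 0.0487, and in WN v CT il8 and camp-a were outside it, at 0.427 and 0.819. These counts describe how the probes were picked and say nothing more of them. Groups did not overlap, with the warm fish higher, at 1.53% of all probes in WN v CT and at 2.1% in WH v CT, and nckap1l was such a probe in both. Between WH and WN fish 0.176% were such probes with the WH fish higher, and none of the 4 was among them.

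The comparison of WH with WN fish asks what 70% air saturation adds at 20 °C, and was not itself used to pick the probes. il8 and camp-a, however, were picked through their high values in the same WH fish, so their differences here are a description without a test of their own. il8 was higher in WH fish by 1.39 (SE 0.53, 95% interval 0.29 to 2.50), or 2.63 times, with all 6 WH fish above the WN mean. camp-a was higher by 1.59 (SE 0.58, interval 0.38 to 2.80), or 3.01 times, again with all 6 WH fish above the WN mean. nckap1l and epx were picked through their high values in both warm treatments, so the same fish give them no test of their own either. For nckap1l the difference was 0.52 (SE 0.25, interval -0.00173 to 1.05). For epx the difference was -0.01 (SE 0.37, interval -0.77 to 0.75), and the interval leaves room for a difference as low as -0.77 or as high as 0.75 on the log2 scale.

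None of these differences passed the adjustment over all probes in limma, with an adjusted p of 0.847 for il8, camp-a and nckap1l and 0.998 for epx. The background here was 0% of the probes tested, while 1377 of 23846 (5.77%) had an unadjusted p under 0.05. Under the other ways of processing, the adjusted p ranged from 0.631 to 1.00 for il8 and from 0.618 to 1.00 for camp-a. With slide as a block the difference was 1.62 (SE 0.59) for il8, 1.94 (SE 0.54) for camp-a and 0.68 (SE 0.27) for nckap1l. Within each of the 3 slides that hold both treatments, with 1 or 2 fish of a treatment on each, il8 was higher in WH fish, by 1.67 to 1.87, and camp-a by 1.49 to 2.79. Without WH-3, the highest fish for both, the difference was 1.01 for il8 and 1.28 for camp-a.

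The fish sampled from the 2 tanks of the WH treatment stood apart in il8. The 3 fish of tank 1 were at 1.17 to 2.84 and the 3 of tank 6 at -0.33 to 0.75, so the tanks did not overlap, and tank 1 was higher on average by 1.62 (exact permutation p = 0.1, the smallest that 3 against 3 fish allow). camp-a had a tank difference of like size, 1.48, with the tanks overlapping (exact permutation p = 0.2). The mean of tank 6 was 0.14 for il8 and -0.02 for camp-a, above the WN tank means of -0.55 and -0.35 for il8 and of -0.94 and -0.76 for camp-a. For epx the non-overlapping tanks were those of WN fish, at 0.70 to 1.10 in tank 5 and -0.37 to 0.02 in tank 2 (difference 1.16 with tank 5 higher, exact permutation p = 0.1). nckap1l had no such split, and its tank means differed by 0.20 in WH, 0.36 in WN and 0.45 in CT fish. Tanks were compared for each of the 4 probes in each treatment. The share of all probes whose tanks do not overlap was not counted, so these splits are a description.

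Fish of one treatment differed in il8 and camp-a far more than in most probes. The SD between fish of a treatment, pooled over treatments, was 1.08 for il8 and 1.14 for camp-a on the log2 scale against a median of 0.44 over all probes tested, which placed them at percentiles 99.3 and 99.5. Among the 2385 probes of the same class of brightness their percentiles were 99.5 and 99.7. Brightness here is the mean of both channels over all arrays, so the class does not match probes on dim Cy5 spots in CT fish. The part of such spots in the spread was not tested. epx, with an SD of 0.71, was at percentile 93.4, and nckap1l, with 0.41, at percentile 41.6, close to the middle of all probes. The spread of il8 was 1.37 in CT, 0.61 in WN and 1.13 in WH fish, and that of camp-a 1.43, 0.60 and 1.15, so for both the WN fish were the most alike.

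Whether the 4 probes vary together between fish was asked on the deviation of each fish from the mean of its treatment, which takes out the differences that picked the probes. Of the 6 pairs, il8 and camp-a moved together most closely (Pearson r = 0.72, permutation p = 0.00683, adjusted over the 6 pairs 0.0410; Spearman rho = 0.70, permutation p = 0.00571, adjusted 0.0343; n = 17). Among the fish below their treatment mean in both were CT-6, CT-1 and WH-5, and among those above it in both were WH-3, CT-2 and CT-4. Of these, CT-6, CT-1 and CT-4 had a Cy5 spot of il8 not above background, and CT-2 one of camp-a. Within treatments r was 0.71 in CT (n = 6, exact permutation p = 0.108), 0.63 in WN (n = 5, exact permutation p = 0.30) and 0.75 in WH fish (n = 6, exact permutation p = 0.0792), positive in each. Of all other probes tested, 0.168% were as closely correlated with il8 as camp-a was, and camp-a ranked 40 of 23845. Without CT-6 and WH-3, the 2 fish farthest from the median of il8, r was 0.55 (permutation p = 0.0937), so the relation no longer passed and rested in part on those fish. With slide taken out as well, r was 0.69 (permutation p = 0.0270, adjusted 0.0810). With the tank means taken out in place of the slides, an alternative added after seeing the data, r was 0.67 (permutation p = 0.0447, adjusted 0.134), which did not pass. Leaving out single arrays gave r of 0.65 to 0.79, and the adjusted p rose over the threshold, to at most 0.110, without CT-1, CT-3, CT-5, CT-6, WN-5, WH-3 or WH-5. Without the dim Cy5 spots r was 0.72 with fewer fish (adjusted permutation p = 0.202).

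il8 and epx were the next closest pair, past the threshold after adjustment by rho but not by r (r = 0.57, permutation p = 0.0235, adjusted 0.0706; rho = 0.60, permutation p = 0.0132, adjusted 0.0395; n = 18). It was closer with slide taken out (r = 0.83, permutation p = 9.2e-04, adjusted 0.00552) and less close without CT-6 and WH-3 (r = 0.48, permutation p = 0.0753). With the tank means taken out it was 0.61 (permutation p = 0.0408, adjusted 0.134). The adjusted p of r fell under the threshold without WN-1, WN-6 or WH-6, at the lowest to 0.0370. The pair camp-a and epx, in contrast, had r = 0.10 (permutation p = 0.718) and, with slide taken out, 0.55 (permutation p = 0.0935). None of the 3 pairs with nckap1l passed, with r of 0.24 to il8, 0.41 to camp-a and -0.30 to epx (permutation p = 0.421, 0.147 and 0.256). Single arrays moved these values by much: r of nckap1l was 0.08 without CT-1 and 0.39 without WN-3 for il8, 0.22 without CT-4 and 0.60 without WN-3 for camp-a, and -0.51 without CT-1 and -0.20 without CT-3 for epx. None of the 3 pairs passed with any single array left out.

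**Figure D2:**
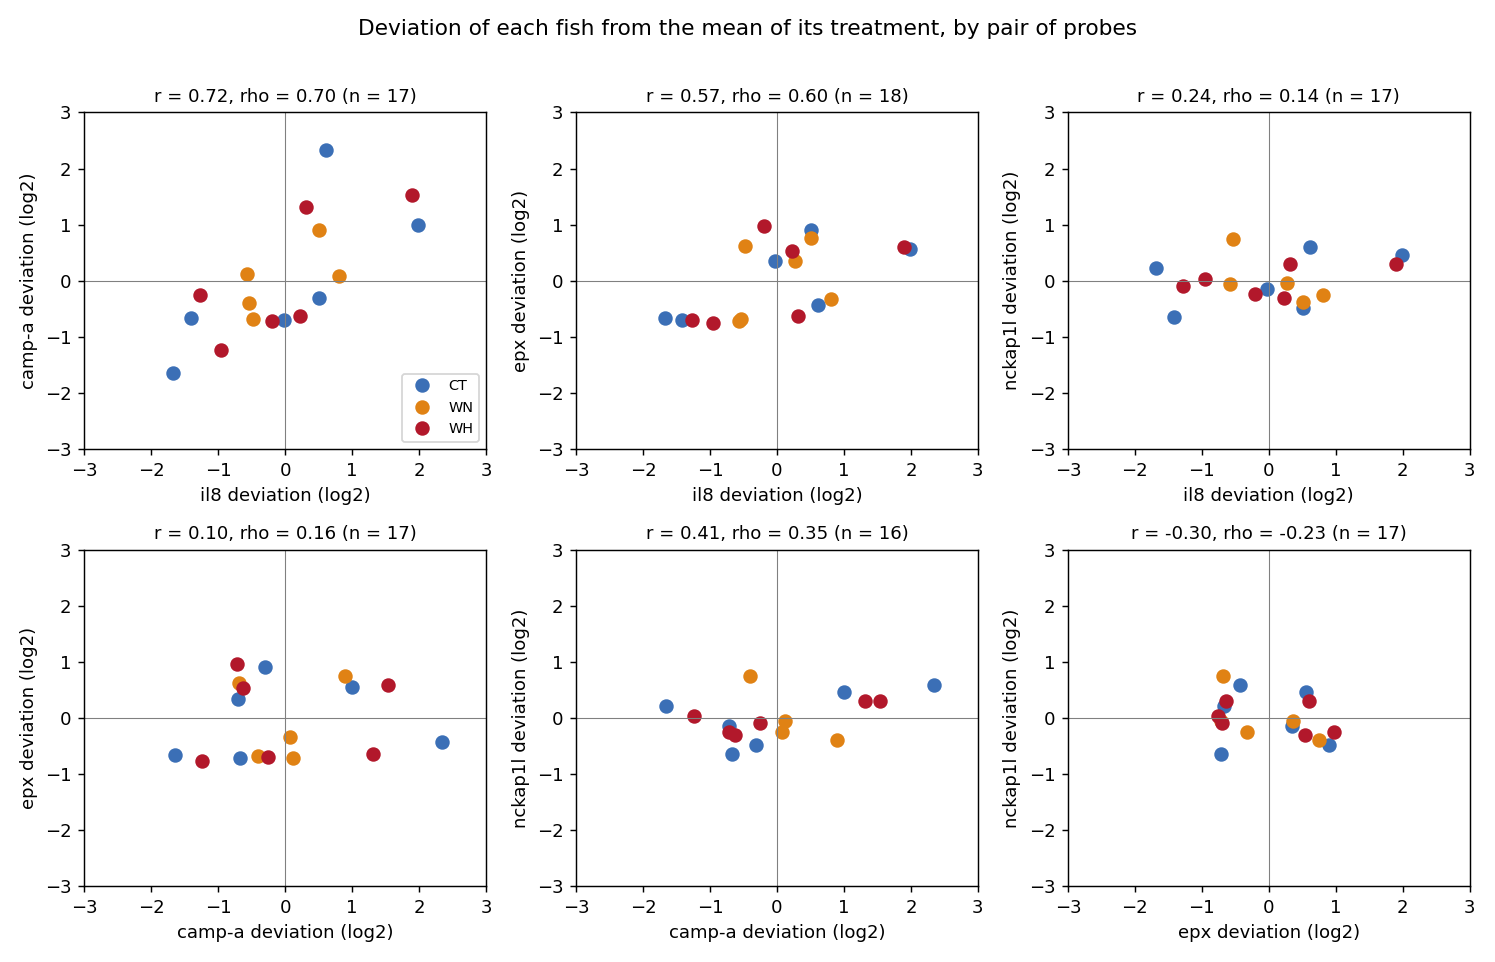
Deviation of each fish from its treatment mean on the log2 scale for each pair of the 4 probes (horizontal and vertical axes), coloured by treatment, with r and rho. Points follow a rising line for il8 and camp-a (r = 0.72) and for il8 and epx (r = 0.57), and scatter for epx and nckap1l (r = -0.30).

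Of the 16 neutrophil and granulocyte genes listed, 3 had a named probe, and these were epx itself, mmp9 (C081R049) and 2 probes of MMP13 (C245R152 and C018R115), matrix metalloproteinases of which the first is stored in neutrophil granules. The names come from the study's list of probes that differed in WN fish and from its qPCR genes, so the direction of these probes against CT is no independent evidence. Both MMP13 probes were higher in WN v CT (by 2.26, SE 0.42, and 1.38, SE 0.34; limma adjusted p = 0.00203 and 0.0191) and in WH v CT (by 1.77 and 1.29; limma adjusted p = 0.0125 and 0.0264). For mmp9 the difference was 1.15 in each comparison (SE 0.38; limma adjusted p = 0.0843 and 0.0853). Between WH and WN fish the difference was -0.50 (SE 0.42) and -0.09 (SE 0.34) for the MMP13 probes and 0.00 (SE 0.38) for mmp9, with limma adjusted p of 0.906, 0.978 and 0.999.

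Between fish of a treatment, epx varied with these metalloproteinase probes. Among the 1158 named probes with a value on every array, the one most like epx was mmp9, with r = 0.77 over 18 fish, followed by BCKDHB (r = 0.67) and HSPD1 (r = 0.64), a mitochondrial branched-chain keto acid dehydrogenase subunit and a mitochondrial chaperone. The 12 relations of the 3 metalloproteinase probes with the 4 leukocyte-gene probes were a set chosen after values were seen. Adjusted p-values are over these 12. They include the relation of epx and mmp9, a pair picked for its likeness, which lowers the adjusted p of the others. For epx and mmp9 rho was 0.88, and no test is given, because mmp9 ranked first among the named probes. epx was also correlated with the MMP13 probes (r = 0.61 for both; adjusted permutation p = 0.0382 and 0.0392; rho = 0.63 and 0.64, adjusted permutation p = 0.0312 for both). il8 was correlated with the MMP13 probe C018R115 (r = 0.64, adjusted permutation p = 0.0262, and rho = 0.62). With mmp9 it was less close (r = 0.44, adjusted permutation p = 0.0496, and rho = 0.54). That value, just under the threshold, is not read as passing, because the 12 include epx and mmp9. With the other MMP13 probe, C245R152, il8 did not pass (r = 0.32, adjusted permutation p = 0.191; rho = 0.36), so the MMP13 probes differed here. With slide taken out, r of epx with the 3 probes was 0.71 to 0.83 and that of il8 0.62 to 0.87. With the tank means taken out, r of epx was 0.53 to 0.65, with an adjusted permutation p of 0.0199 and 0.0193 for the MMP13 probes. In the same setting r of il8 was 0.68 with C018R115 (adjusted permutation p = 0.0239) and 0.38 with C245R152 (adjusted permutation p = 0.202). With mmp9 it was 0.37 (adjusted permutation p = 0.192), which did not pass. Without the 2 fish farthest from the median of the metalloproteinase, epx kept r of 0.48 to 0.72. camp-a (r of 0.11 to 0.29) and nckap1l (r of -0.34 to -0.11) had no relation past the threshold with any of the 3. With slide taken out, r of camp-a was 0.47 to 0.53 (adjusted permutation p = 0.111 for each) and that of nckap1l -0.35 to -0.10.

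**Figure D3:**
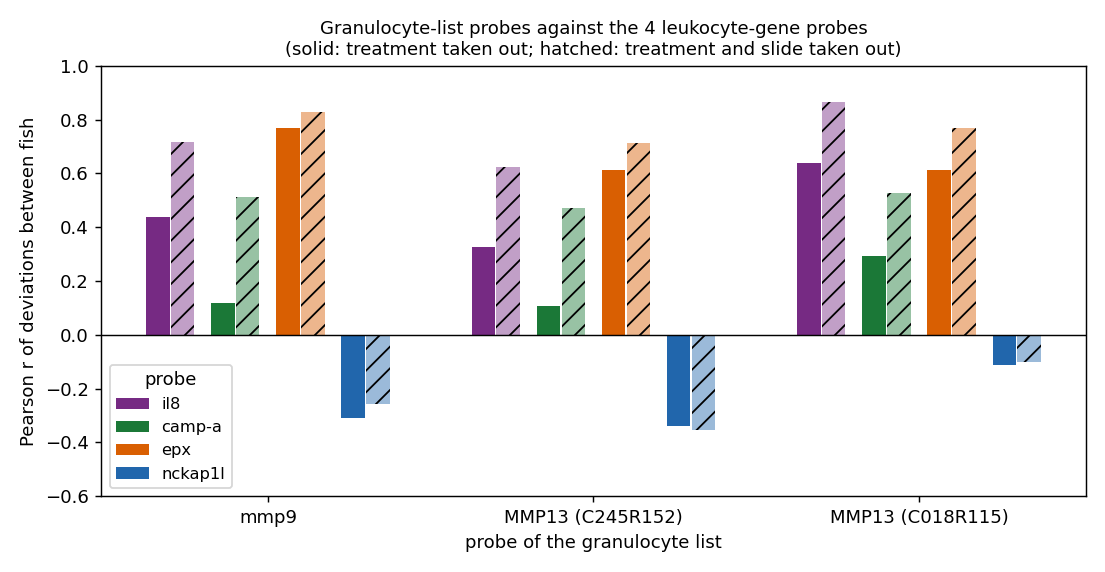
Pearson r (vertical axis) between fish, after treatment means are taken out, of 3 metalloproteinase probes with the 4 leukocyte-gene probes (colours); hatched bars have slide taken out too. The bars of epx are at 0.61 to 0.77 and those of nckap1l are below 0 for each of the 3 probes.

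For il8 the named probes most like it were USP1, a deubiquitinase (r = 0.79), mhcii, an MHC class II gene that antigen-presenting cells use (r = 0.76), and TRNAU1AP, which takes part in selenoprotein synthesis (r = 0.68). For camp-a they were TRNAU1AP (r = 0.73), il8 itself (r = 0.72) and MTDH (r = 0.70), over 17 fish, and for nckap1l SNRPG, a splicing ribonucleoprotein (r = 0.85), PSMD12, a proteasome subunit (r = 0.77), and NPC2, a lysosomal cholesterol carrier (r = 0.76), over 17 fish. These probes were chosen for their likeness, so no test is given.

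The probes named for B cells and red blood cells had lower medians in warm fish. Of 8 B cell genes, 2 had 5 named probes, all of immunoglobulin chains, whose median difference was -0.77 for WN v CT and -0.61 for WH v CT beside 0.01 and 0.04 over all probes tested. One of the 5, the IGKC probe C014R006, fell in WN v CT (by 0.93, SE 0.26, limma adjusted p = 0.0395). Of 9 erythrocyte genes, 2 had 3 named probes, 2 of them of the heme synthesis enzyme ALAS2, with medians of -0.71 and -0.66, of which the globin probe hba4 (C081R093) fell in WH v CT (by 1.12, SE 0.30, limma adjusted p = 0.0278). Beside these, 3.08% of all probes tested were called lower in WN v CT and 2.72% in WH v CT. The macrophage list had 1 named probe of 10 genes, that of the protease CTSS, at -0.89 (SE 0.29) in WN v CT, 0.23 (SE 0.29) in WH v CT and 1.11 (SE 0.29) in WH v WN, where its limma adjusted p was 0.781. No T cell or thrombocyte gene of the lists had a named probe. The hepatocyte probe FABP1 rose in both (by 0.98 in WN and 0.97 in WH fish, SE 0.25, limma adjusted p = 0.0206 and 0.0212). These lists were named from probes that differed in WN fish, and the part of cell content in the results of the 4 probes was not tested.

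Among the chemokines and the partners of NCKAP1L in actin branching, few genes had a named probe. Of 21 chemokine and receptor genes, il8 and CCL20, a chemokine that draws lymphocytes and dendritic cells, had 1 probe each, and CCL20 stood at 0.74 (SE 0.36) in WN v CT and 1.10 (SE 0.36) in WH v CT, neither past the threshold (limma adjusted p = 0.270 and 0.0861). The list of inflammatory cytokines (18 genes) had none. That of antimicrobial and acute phase proteins (14 genes) had none beside the cathelicidin probe camp-a itself, whose symbol was not matched to the listed CAMP. Of 26 genes of the WAVE complex and its regulators, 4 had 6 named probes, and of these nckap1l alone was higher in WN v CT and in WH v CT, while 3 probes were called lower in WN and 1 in WH fish. Over all probes tested, 1.86% were called higher and 3.08% lower in WN v CT, and 2.42% and 2.72% in WH v CT. The 5 other probes were named from the study's list of probes that differed in WN fish, and nckap1l from its qPCR genes, so these counts are no independent evidence of a direction. NCKAP1 (C024R009), the form of the same subunit in other tissues, fell in WN v CT by 1.16 (SE 0.30, limma adjusted p = 0.0267), and its WH v CT difference of -0.67 (SE 0.29) did not pass. Of the probes of ARPC4, a subunit of the Arp2/3 complex that nucleates the branch, C147R054 fell by 0.58 in both (limma adjusted p = 0.0373 and 0.0357), and C133R035 by 0.61 in WN v CT (limma adjusted p = 0.0438).

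**Figure D4:**
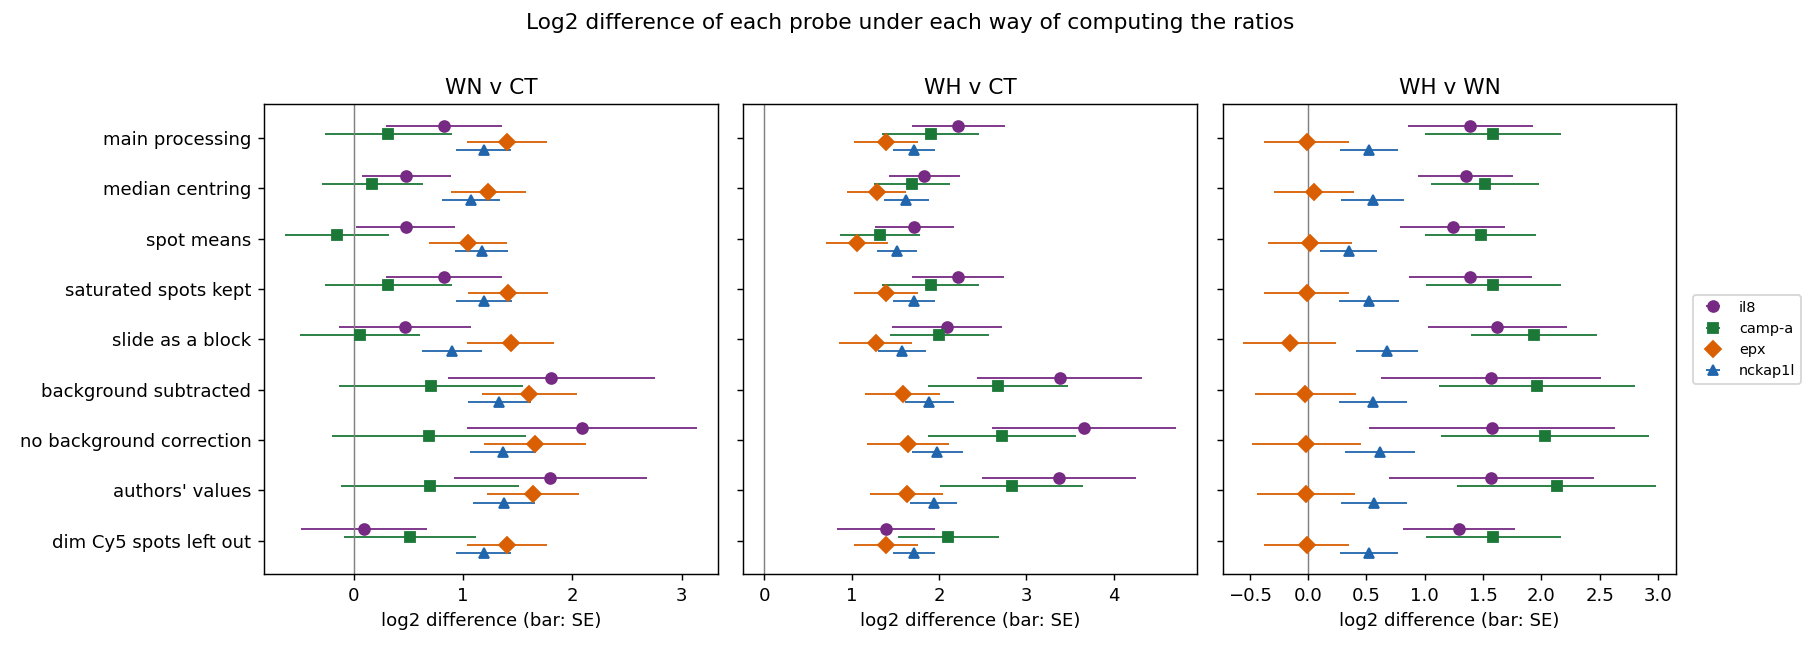
Log2 difference (horizontal axis, bars are SE) of each of the 4 probes in the 3 comparisons under each way of computing the ratios (rows). Those of epx in WN v CT lie between 1.05 and 1.66, those of nckap1l between 0.90 and 1.38, and those of il8 in WH v CT between 1.39 and 3.66.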

How the data were processed

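Per channel, the authors measured the median and mean intensity of each spot and of its surroundings, and deposited them with a quality score (flag) for each spot. The authors' deposited log2 ratios (17072 probes) were background-corrected and loess-normalized without flagged spots, and served as an alternative. They correlated at r = 0.959 to 0.996 per array with the ratios computed here and had array medians of -0.28 to -0.02. Ratios were computed with limma 3.58.1 in R 4.3.3 from spot medians, with normexp background correction (offset 50) and loess within arrays, and flagged spots were left missing. Probes were tested if, on 75% of the arrays, the spot was unflagged, had a ratio and was over background by 2 background SDs in either channel. All 3 groups were fitted with lmFit and eBayes, with Benjamini-Hochberg adjustment and a threshold of 0.05. The study's SAM test was replaced by limma. Pair correlations used 100000 permutations of fish within treatments. The procedures were tested on simulated data. The members and gene lists were chosen with earlier results of these data known. The probes named are the 4, those of the same genes, up to 3 called probes per list with up to 2 against its direction, and the 3 named probes most correlated with each of the 4. mmp9, a qPCR gene, was also followed with MMP13. Names came from the study's qPCR genes and its WN list, of which 1493 entries were read, and its WH list was not used. Samples were grouped by their labels, and alternatives are given in the closing section. The qPCR measurements were not analysed here.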

Additional observations from a re-analysis of the deposited data

How the results depend on the processing

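The differences of epx and nckap1l from CT fish kept their direction and moved by less than the SD between fish under the authors' values, median centring in place of loess, background subtracted or uncorrected, spot means, saturated spots kept, no detection filter, slide or tank as a block, the replicate block and each array left out. So did those of camp-a, apart from the turns of sign in WN v CT given in the report. il8 moved further. Its WH v CT difference was 3.38 with background subtracted, 3.66 with no background correction and 3.37 with the authors' values, and its WN v CT difference was 2.09 with no background correction. The counts of called probes over the whole array fell with median centring to 473 for WN v CT and 497 for WH v CT from 1179 and 1226, and with slide as a block to 693 for WH v CT. Leaving out single arrays gave 754 to 1165 for WN v CT, with 754 without CT-6. In WH v WN 0 probes were called in limma under each of these settings, and the direction of epx there turned with median centring (0.05), with spot means (0.02) and without WN-4, WN-5, WN-6, WH-1, WH-4 or WH-5 (0.06 to 0.14). The correlation of il8 and camp-a was no longer past the threshold with background subtracted (r = 0.65), no background correction (r = 0.65), the authors' values (r = 0.67), slide as a block (r = 0.69), tank as a block (r = 0.67, chosen after seeing the data), the 2 farthest fish left out (r = 0.55) and dim Cy5 spots left out (r = 0.72), and lay at 0.65 to 0.79 without single arrays. That of il8 and epx passed it with slide as a block (r = 0.83), the replicate block (r = 0.72) and Spearman rho (0.60), and lay at 0.52 to 0.64 without single arrays. For the same pair r was 0.41 with median centring (adjusted permutation p = 0.347). With dim Cy5 spots left out it was 0.51 (adjusted permutation p = 0.274). The causes were not tested. Replicate numbers share no fish or tank between treatments, and same-numbered fish correlated at -0.12 to 0.13 in their deviations, so the numbers do not pair the fish. With the replicate block 1006 probes were called for WN v CT and 1034 for WH v CT, and r of il8 and camp-a was 0.82 (adjusted permutation p = 0.0167). Tank as a random block had a correlation of -0.05, which narrows the errors between treatments. Precision is limited by the number of fish, by 2 tanks per treatment and, for il8 and camp-a, by dim Cy5 spots in CT fish.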
